A study of Mus musculus with 6 samples.

Results

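The genes described here are 10 of the interleukin 1 system. They are the ligands Il1a, Il1b and Il33, the antagonist Il1rn, the receptors Il1r1, Il1rap and Il1rl1 and the decoy receptor Il1r2. With them are the adaptor Myd88 and Irak3, an inhibitory member of the IRAK family. The 10 genes were chosen by symbol, through the RefSeq accession that the array gives for each probe. The brightest probe of a gene over the 6 arrays stood for it. All 10 lie on the array, which holds 32854 genes or unnamed probes, and 9 of them were bright enough to be tested among 25790. The cells came from dispersed islets of male mice of the C57Bl/6N strain and were kept in culture for 72 h. In the exoNOD group (3 arrays) the medium held exosomes, vesicles that cells release, at 50 µg/ml. Their source was cultured CD4+CD25- T lymphocytes taken from NOD animals, which are prone to autoimmune diabetes. In the control group (3 arrays) no exosomes were added, so vesicles from another source are not part of the comparison. The study's text gives 3 independent experiments with different islet and exosome preparations. Dispersed islets hold endocrine cells together with resident immune, vascular and connective tissue cells, and the animals' age was not given in the sources used here.

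Interleukin 1 alpha and beta are inflammatory cytokines that bind the receptor encoded by Il1r1, which then recruits the accessory chain encoded by Il1rap. The pair signals through the adaptor MyD88 and kinases of the IRAK family to NF-kB. Il1rn encodes a secreted antagonist that occupies the receptor without signalling, Il1r2 a decoy receptor that lacks a signalling domain, and Irak3 (IRAK-M) a family member that dampens the pathway in myeloid cells. Il33 is a nuclear alarmin of stromal, epithelial and endothelial cells whose receptor, ST2, is encoded by Il1rl1 and shares the Il1rap chain. In islets, interleukin 1 beta is known to come mainly from resident macrophages, and beta cells carry abundant Il1r1 and are sensitive to the cytokine.

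A sequence feature that the ligand genes share close to the start is shown first. The sequences are the 250 bases before the annotated start in RefSeq's GRCm38.p6, written 5′ to 3′ on the gene's strand, with matches to TATAAA (sense strand) and to the AP-1 motif TGANTCA (N is any base; both strands) in capitals.
Il1b (chr2:129371140-129371389, minus strand): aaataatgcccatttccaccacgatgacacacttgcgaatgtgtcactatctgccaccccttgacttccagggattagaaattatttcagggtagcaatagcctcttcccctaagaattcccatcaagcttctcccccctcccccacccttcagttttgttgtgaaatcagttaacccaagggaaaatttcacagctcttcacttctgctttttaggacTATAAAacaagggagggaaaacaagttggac
Il1a (chr2:129309973-129310222, minus strand): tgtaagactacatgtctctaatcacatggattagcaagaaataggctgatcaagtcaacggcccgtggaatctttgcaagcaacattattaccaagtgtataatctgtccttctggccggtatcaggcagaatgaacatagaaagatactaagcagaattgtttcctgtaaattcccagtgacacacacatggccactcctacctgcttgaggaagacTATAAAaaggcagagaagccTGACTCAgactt
Il33 (chr19:29945540-29945789, plus strand): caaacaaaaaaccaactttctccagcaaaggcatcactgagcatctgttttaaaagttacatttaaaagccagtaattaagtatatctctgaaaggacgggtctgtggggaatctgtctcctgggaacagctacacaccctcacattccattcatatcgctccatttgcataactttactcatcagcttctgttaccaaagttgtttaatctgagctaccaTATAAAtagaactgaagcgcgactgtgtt

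Each of the 3 ligand genes has TATAAA close before a start, with its first base 31 bases upstream in Il1b, 32 in Il1a and 29 in this start of Il33. Of the 16 promoters listed for the 10 members, these 3 are the ones with TATAAA beginning 20 to 40 bases upstream, against 1.99% of all 32851 promoters in the table. The AP-1 motif lies 5 bases before the start of Il1a and also occurs in 1 of the 3 listed promoters of Il1rn, and 6.75% of all promoters hold it. Of 2 degenerate forms of the kappaB motif, each 10 bases long and searched on both strands, the stricter occurs in 1 member promoter, of Il1rn (1.41% of all promoters), and the looser in 2, of Il1rn and Il1rap (3.44%), and neither is in the windows printed above. Such matches describe letters only. The promoter in use in these cells was not measured.

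Levels below are log2 of the processed signal relative to the 75th percentile of the same array, so that 0 is the brightness of that percentile, and changes are exoNOD minus control. A level depends on the probe as well as on the transcript, so levels are not compared between genes. Arrays of equal replicate number deviated alike from their group means and were taken as pairs. The test without the pairs is the main one and the test with replicate number as a block (the replicate block) is given where it changes a call. The controls and exoNOD replicate 1 were scanned together and the other exoNOD arrays together, which is taken here as slide 1 and slide 2. Slide 2 holds no control, so for slide 1 the value of exoNOD replicate 1 against its controls is given beside the results. Fits without exoNOD replicate 1 or without pair 1 leave each group on its own slide. In them slide and treatment cannot be told apart. All 13 beta cell markers and all 10 markers of alpha, delta and PP cells were above background on all 6 arrays. So were 24700 of the 32854 genes or unnamed probes on the array. All 15 fibroblast and stellate markers and all 10 duct markers were among the genes so detected. Detection alone therefore cannot tell the labelled tissue from another.

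Of the 9 tested members, 7 had a higher mean in exoNOD cells and 2 a lower one, whereas 55.4% of all tested genes had a higher mean. Il1a is among the 9 only through the exoNOD arrays, so this count is a description. Limma called 0 of the 9 members at an adjusted p under 0.05, where it called 0.105% of all tested genes, and 1 of the 9, Il1rl1, had an unadjusted p under 0.05, as did 16.6% of all. With the replicate block limma called 1 member, Il1b, which rose, and 8.72% of all tested genes (6.89% higher and 1.83% lower in exoNOD cells). In 1 of the 9, Il1rl1, the exoNOD and control arrays did not overlap, as was the case for 22.4% of all tested genes. Il1b, Il1rl1 and Myd88 were higher in exoNOD cells in all 3 pairs (29% of all tested genes), and Il1r1 was lower in all 3. With Il1r1, 4 of the 9 kept 1 direction over the pairs, as did 51.2% of all tested genes. On slide 1, exoNOD replicate 1 lay above all 3 controls in 1 of the 9, Il1rl1 (27.4% of all tested genes), and 0 of the 9 had an unadjusted p under 0.05 in limma on that slide alone (4.43% of all).

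**Figure D1:**
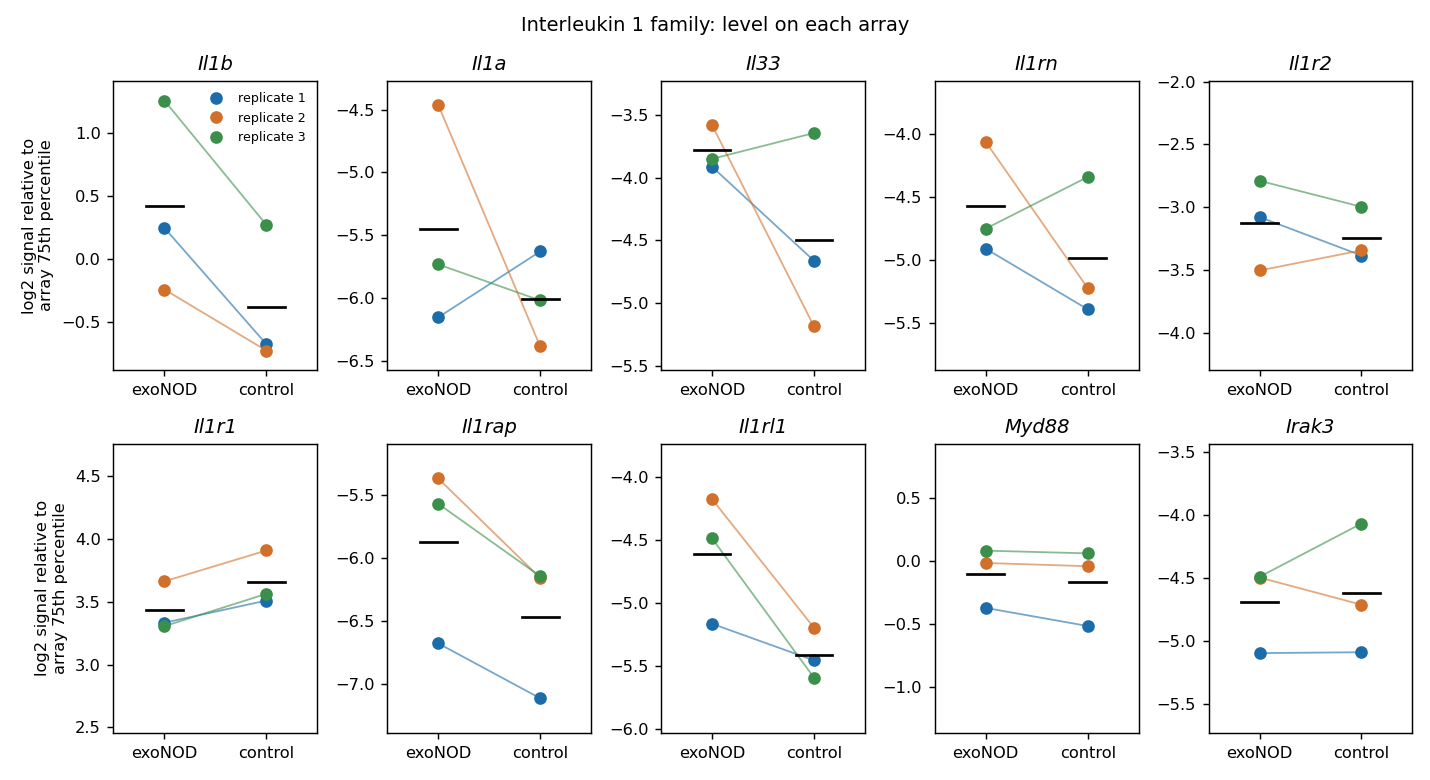
Level of each member (log2 signal relative to the array's 75th percentile) on the 3 exoNOD and 3 control arrays, with lines joining arrays of equal replicate number and black bars for group means; each panel has its own axis. Il1b, Il1rl1 and, slightly, Myd88 slope down towards control in every pair, Il1r1 slopes up in every pair, and the lines of Il1a, Il33, Il1rn, Il1r2 and Irak3 run both ways.

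Among the ligands, Il1b had processed signals of 1032, 748 and 2133 on exoNOD arrays 1, 2 and 3, against 529.5, 533 and 981 on control arrays 1, 2 and 3. Replicate 3 was the highest array of each group, and its control lay above exoNOD replicates 1 and 2 once the arrays were scaled, so the groups overlap. Within pairs exoNOD was higher by 0.93, 0.49 and 0.99. Il1b averaged 0.42 ± 0.77 in exoNOD and −0.38 ± 0.56 in control cells (SD, n = 3 each). The log2 change was 0.80 ± 0.39 (SE), a 1.74-fold difference, with a 95% interval from −0.08 to 1.68 and a limma adjusted p of 0.331. With the replicate block the change was the same, its interval ran from 0.55 to 1.05, and Il1b rose with an adjusted p of 0.00278. Leaving out 1 pair at a time from that fit gave changes between 0.71 and 0.96, and Il1b passed each time. Without the block a single array moved the change more, to 0.38 without exoNOD replicate 3 (adjusted p = 0.639) and to 1.13 without exoNOD replicate 2 (adjusted p = 0.378). On slide 1, exoNOD replicate 1 lay 0.63 above the mean of its 3 controls and 0.024 below the highest of them.

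Il1b is represented by 1 probe printed as 10 spots on each array. Their spread shows how closely the spots of an array repeat one another, not the spread between arrays. Over the spots in use the coefficient of variation was between 1.40% and 4.10% per array. On exoNOD replicate 3 a single spot read 45351, 20.1 times the next highest of the 10, and the scanner software marked it as uneven and as an outlier. Spots so marked were left out throughout. On that array 7 of 10 spots remained, between 2093 and 2173. Averaging all 10 spots would have lifted the level of exoNOD replicate 3 by 0.45 and the log2 change of Il1b to 0.95 (limma adjusted p = 0.339, 0.00549 with the replicate block).

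**Figure D2:**
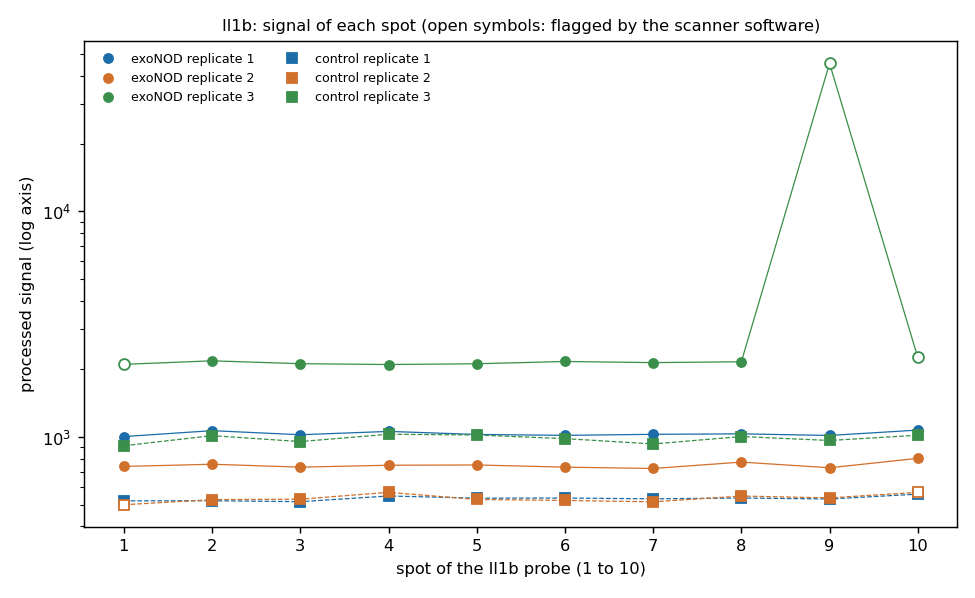
Processed signal (log axis) of the 10 spots of the Il1b probe on each array, circles for exoNOD and squares for control, open symbols for spots marked as outliers by the scanner software. The spots of an array lie close together except for 1 spot at 45351 on exoNOD replicate 3.

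Il1a was dim and showed no common direction. Its signal was 12.2, 40.1 and 16.8 on exoNOD arrays 1, 2 and 3 and 17.1, 10.6 and 12.5 on control arrays 1, 2 and 3, and it was well above background on all 3 exoNOD and on 2 of 3 control arrays. The high value is that of exoNOD replicate 2, and the groups overlap. The pairs differed by −0.52, 1.92 and 0.29, and the log2 change was 0.56 ± 0.42 with an interval from −0.40 to 1.52 (limma adjusted p = 0.511). Without exoNOD replicate 2 the change was 0.068 and without exoNOD replicate 1 it was 0.91. Without pair 1 Il1a passed with the replicate block (1.104, limma adjusted p = 0.022), in a fit that leaves each group on its own slide. Il1a met the filter only through the exoNOD arrays, so this call is a description. Il1a and Il1b are neighbours on chromosome 2, and their order over the arrays differed: Il1b was highest in exoNOD replicate 3 and Il1a in exoNOD replicate 2.

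Il33 had levels of −3.91, −3.58 and −3.85 on exoNOD arrays 1, 2 and 3, against −4.66, −5.18 and −3.65 on control arrays 1, 2 and 3. The exoNOD arrays lay close together (−3.78 ± 0.18, SD, n = 3), whereas the controls were spread (−4.50 ± 0.78, n = 3) and control replicate 3 lay above exoNOD replicates 1 and 3, so the groups overlap. The log2 change was 0.71 ± 0.35 with an interval from −0.08 to 1.51 (limma adjusted p = 0.334, 0.141 with the replicate block). Within pairs it was 0.75, 1.60 and −0.21. The exoNOD arrays were higher in pairs 1 and 2 but not in pair 3. Il33 passed with the block when pair 1 (0.70, limma adjusted p = 0.0434) or pair 3 (1.17, 0.00119) was left out. Without pair 1 each group lies on its own slide. Without pair 2 Il33 did not pass and the change was 0.27 (limma adjusted p = 0.592). In the fit without the block the change was 0.37 without control replicate 2 and 1.14 without control replicate 3.

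The secreted antagonist gene Il1rn had levels of −4.91, −4.06 and −4.75 on exoNOD arrays 1, 2 and 3 and of −5.39, −5.22 and −4.34 on control arrays 1, 2 and 3. As for Il33, control replicate 3 was high and pair 3 ran against the others (0.48, 1.16 and −0.41). The change was 0.41 ± 0.33 with an interval from −0.33 to 1.16 (limma adjusted p = 0.537). Single arrays moved it: leaving out exoNOD replicate 2 gave 0.15, leaving out control replicate 1 gave 0.21 and leaving out control replicate 3 gave 0.73, and with the block it was 0.036 without pair 2. The decoy receptor gene Il1r2 had levels of −3.08, −3.50 and −2.79 on exoNOD and −3.38, −3.34 and −3.00 on control arrays, in the order of replicates 1 to 3. Its change of 0.12 ± 0.21 (interval −0.36 to 0.59, adjusted p = 0.797) turned to −0.030 after quantile normalization and −0.023 after scaling by the median. The groups of Il1rn and of Il1r2 overlap.

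Irak3, the inhibitory IRAK family member, was at −5.10, −4.50 and −4.49 on exoNOD arrays and −5.09, −4.71 and −4.07 on control arrays 1 to 3. The groups overlap, pairs differed by −0.007, 0.22 and −0.42, and the change was −0.07 ± 0.29 (interval −0.74 to 0.59, limma adjusted p = 0.917). Myd88, the adaptor shared by this receptor family and most Toll-like receptors, is printed as 10 spots. Over the 6 arrays, 8 of its 60 spots were flagged and left out. Myd88 lay at −0.37, −0.02 and 0.08 on exoNOD and −0.52, −0.04 and 0.06 on control arrays 1 to 3. The pairs differed by 0.14, 0.026 and 0.022, the change was 0.064 ± 0.18, and the interval ran from −0.35 to 0.48 (adjusted p = 0.877), or from −0.13 to 0.26 with the replicate block. The groups overlap, and each pair of arrays lay close together.

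Of the receptors, Il1r1 was bright on every array, with signals of 8756, 11195 and 8797 on exoNOD arrays 1, 2 and 3 and 9638, 13248 and 9595 on control arrays 1, 2 and 3. It was the one tested member that was lower in exoNOD cells in all 3 pairs, by 0.18, 0.25 and 0.26 on the log2 scale, although the groups overlap because replicate 2 was high in both. Levels averaged 3.43 ± 0.20 in exoNOD and 3.66 ± 0.22 in control cells (SD, n = 3 each). The change was −0.23 ± 0.14 with an interval from −0.55 to 0.10 and did not pass (limma adjusted p = 0.440, 0.106 with the replicate block). The change stayed negative in all 24 settings tried, between −0.42 (normexp) and −0.10 (without control replicate 2).

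Il1rl1, the gene of the Il33 receptor ST2, had levels of −5.16, −4.17 and −4.48 on exoNOD arrays 1, 2 and 3, against −5.46, −5.20 and −5.59 on control arrays 1, 2 and 3. Each exoNOD array lay above each control, by a margin of 0.031 between exoNOD replicate 1 and the highest control. Pairs differed by 0.29, 1.02 and 1.11, the change was 0.81 ± 0.27 (1.75-fold, interval 0.19 to 1.43), and it did not pass in limma (adjusted p = 0.234, 0.0568 with the replicate block). The difference was larger on the exoNOD arrays of slide 2: exoNOD replicate 1 lay 0.25 above the mean of its 3 controls, and without that array Il1rl1 passed (1.09, adjusted p = 0.0413). That fit leaves each group on its own slide, where slide and treatment cannot be told apart. The gene has 2 further probes, which were above background on 0 of 6 arrays and give no second reading.

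Il1rap, the accessory chain of both receptors, was not tested. Its brighter probe was well above background on 2 of 3 exoNOD and 1 of 3 control arrays, at levels of −6.68, −5.37 and −5.57 on exoNOD and −7.11, −6.16 and −6.14 on control arrays 1 to 3. Its other probe was above background on exoNOD replicate 3 alone of the 6 arrays. Readings not above background have no order, so neither a difference nor a direction is given for Il1rap.

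**Figure D3:**
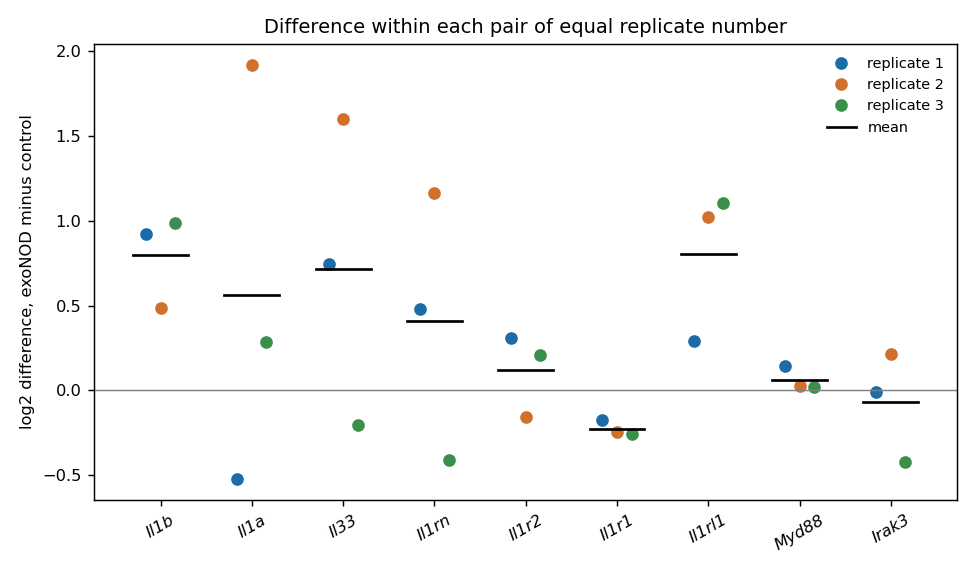
Log2 difference, exoNOD minus control, within each pair of equal replicate number (points) and the mean of the 3 (black bars) for each of the 9 tested members. Il1b, Il1rl1 and Myd88 have 3 points above 0, Il1r1 has 3 below, and Il1a spans from −0.52 to 1.92.

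Il1r2, Il1r1, Il1rl2, Il1rl1, Il18r1 and Il18rap follow one another in this order on chromosome 1, and their values differed in direction. Log2 changes along the cluster were 0.12 for Il1r2, −0.23 for Il1r1, 0.81 for Il1rl1 and 0.81 for the interleukin 18 receptor gene Il18r1, while Il1rl2 and Il18rap were too dim to test. Il18r1 was at −2.38, −2.28 and −1.76 on exoNOD and −3.79, −2.83 and −2.23 on control arrays 1 to 3, with overlapping groups. It rose with the replicate block (adjusted p = 0.0258; 0.301 without it), but did not pass with the block after quantile normalization (0.70, 0.088) or without pair 2 (0.94, 0.129), and without control replicate 1 its change was 0.39.

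The wider pathway was followed in a list of 38 further ligands, receptors, kinases, NF-kB subunits and inflammasome genes. Of these, 34 were found on the array by symbol and 30 were tested. Limma called 0 of the 30 (4 had an unadjusted p under 0.05), and in the blocked fit 2 rose, 28 did not pass and 0 fell, against the 8.72% called over all genes. The median change was −0.0098, where that of all tested genes was 0.035. Casp1, the protease that matures interleukin 1 beta, was one of the 2, at −0.40, −0.43 and 0.03 on exoNOD and −1.08, −0.82 and −0.68 on control arrays 1 to 3. Its groups did not overlap, and it had 1.51 times the control signal (change 0.59 ± 0.16 on the log2 scale; adjusted p = 0.181, and 0.00702 in the blocked limma fit). The other was Il18r1. The inflammasome genes Nlrp3 (0.49, adjusted p = 0.284, 0.0684 with the block) and Pycard (0.26, 0.290, 0.0901) and the IKK subunit gene Ikbkg (0.34, 0.293, 0.113) had positive changes and did not pass.

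A second list held 24 genes known to be induced by interleukin 1, many of which answer to other inflammatory signals as well. It was drawn up with earlier results of these data known and is no independent evidence of direction. Of the 24, 18 were tested, and 17 of the 18 were above background on all 6 arrays. The remaining gene, Mmp3, passed the filter through 1 group only, so its part in the counts below and its own call are a description. Another 5 (Cxcl2, Ccl20, Csf2, Csf3 and Saa3) were above background on 0 of 6 arrays, and Steap4 on 3. Limma called 1 of the 18, Vcam1, an adhesion molecule for leukocytes, which rose (log2 change 1.11 ± 0.13, adjusted p = 0.0364). Vcam1 lay at −1.74, −1.70 and −1.98 on exoNOD and −2.93, −2.96 and −2.86 on control arrays 1 to 3, and it lost its call in 10 of 24 alternatives. A higher mean in exoNOD cells was found for 18 of 18, and 10 had an unadjusted p under 0.05. The median change was 0.87, against 0.035 over all tested genes, and the exoNOD arrays lay above all controls in 7 of 18, against 14.6% of all. In the blocked fit 13 rose, 5 did not pass and 0 fell, beside the 6.89% of all tested genes called higher.

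The chemokine gene Cxcl5 lay at −1.98, −1.74 and 0.06 on exoNOD and −5.34, −5.10 and −2.47 on control arrays 1 to 3 (limma adjusted p = 0.152, 7.43e-05 with the replicate block). Its groups do not overlap, and replicate 3 was the highest array of each group, as for Il1b. The cytokine gene Il6 shared this order, at −2.01, −1.48 and 0.24 on exoNOD and −3.97, −3.96 and −1.05 on control arrays, and it rose with the block (1.91, adjusted p = 0.000821, 0.292 without it). Others that rose with the block were Ccl2 (2.11, adjusted p = 0.00132), the collagenase gene Mmp13 (1.55, 0.00129), the stromelysin gene Mmp3 (1.52, 0.00527), the cyclooxygenase gene Ptgs2 (1.51, 0.00218) and the nitric oxide synthase gene Nos2 (1.09, 0.00196). Smaller rises with the block were those of Cxcl1 (0.95, 0.019), the siderophore-binding gene Lcn2 (0.78, 0.0246), the RNase gene Zc3h12a (0.74, 0.0273) and the deubiquitinase gene Tnfaip3 (0.37, 0.0361), the last 2 being feedback inhibitors of NF-kB signalling. In the fit without the block these 4 leaned on exoNOD replicate 3. Leaving out that array gave 0.34 for Cxcl1, 0.41 for Lcn2, 0.33 for Zc3h12a and 0.0026 for Tnfaip3, with control replicate 3 kept. In the blocked fit without pair 3, 11 of the 18 genes rose, against 13 with all pairs. Those fits called 6.74% and 8.72% of all tested genes. Lcn2, Zc3h12a and Tnfaip3 did not pass with the block after quantile normalization (adjusted p = 0.0785, 0.0875 and 0.0687). Without pair 2 the blocked calls of these 4 and of Ccl2 (1.98, limma adjusted p = 0.0687) and Mmp3 (1.51, 0.056) were lost. That fit called 1.7% of all tested genes. On slide 1, exoNOD replicate 1 was 0.60 above the mean of its controls over the 18 genes, and −0.049 from it for Cxcl1 and −0.072 for Tnfaip3.

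**Figure D4:**
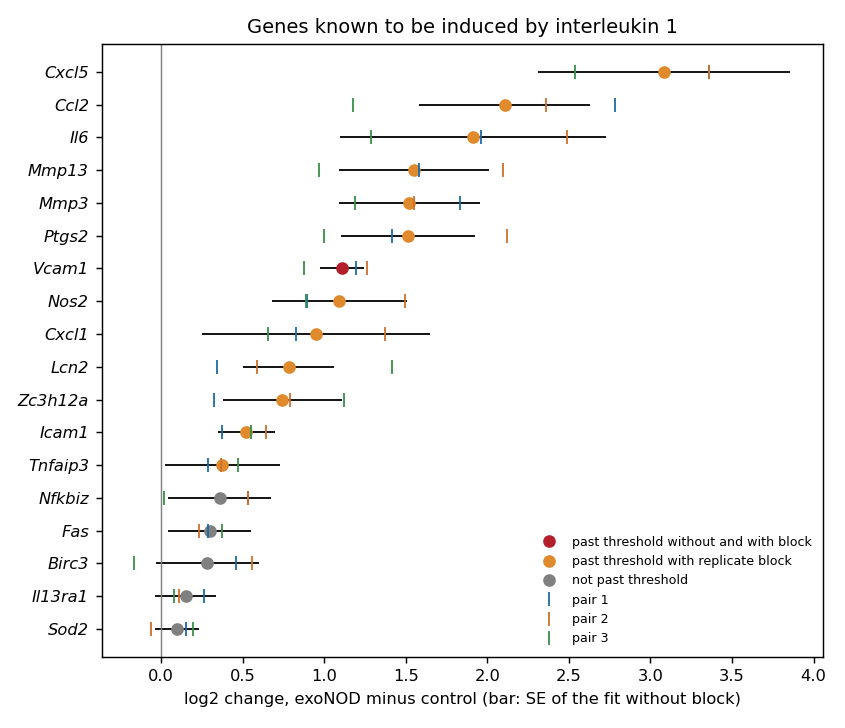
Log2 change, exoNOD minus control, of the 18 tested genes known to be induced by interleukin 1 (points, bars are SE without the block; ticks are the 3 pairs). Vcam1 is past the threshold without the block, 13 are past it with the replicate block, and 18 of 18 points lie above 0.

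Markers of cells that make or sense these cytokines were read beside them. In bulk samples fewer cells of a type and less RNA per cell cannot be told apart. Of 17 macrophage and dendritic cell markers on the array, 17 were tested, and 5 had a higher mean in exoNOD cells. Their summed signal, in units of the array's 75th percentile, was 33.4 to 36.7 in exoNOD and 37.7 to 41.9 in control cells. That difference lay in Itgam, at 12.0 to 13.2 in exoNOD and 17.2 to 18.6 in control cells; the sum without it was 20.4 to 24.7 in exoNOD and 19.5 to 24.7 in control cells, and the median change of the list was −0.039. With the replicate block Itgam (−0.50, limma adjusted p = 0.00895), Adgre1 (−0.87, 0.0158) and Aif1 (−0.62, 0.00655) fell. The mannose receptor gene Mrc1 was called higher in that fit (2.20, 0.00176). Mrc1 was above background on 1 of 3 control arrays and met the filter only through the exoNOD arrays, so its call is a description. For neutrophils 5 of 11 markers were tested, and S100a8 and Ngp were above background on 0 arrays. The sum was 45.7 to 49.8 in exoNOD and 40.5 to 45.9 in control cells. The 2 brightest genes, Csf3r (0.12) and Elane (0.35), weighed most in it, and neither passed with or without the block. The part of these cells in the change of Il1b was not tested.

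Mast cells and some T lymphocytes carry ST2. Of 9 mast cell markers 5 were tested, and the defining markers Cpa3, Cma1, Ms4a2 and Fcer1a were above background on 0 arrays. The summed signal of the 5 was 1.28 to 1.39 in exoNOD and 0.87 to 0.94 in control cells, and Tpsb2 rose (1.30, limma adjusted p = 0.0288). Tpsb2 carried that difference: the sum without it was 0.51 to 0.64 in exoNOD and 0.57 to 0.64 in control cells, and the median change of the list was 0.029. Of 12 T lymphocyte markers 9 were tested, with 8 means higher in exoNOD cells and 3 rises with the replicate block (Lck, Cd5 and Il7r). Their sums were 14.7 to 19.2 in exoNOD and 14.6 to 19.6 in control cells. The 2 brightest weighed most in these sums, Cd4 (0.32) and Cd3e, which was the marker with a lower mean (−0.18). Cd3g was above background on 0 arrays. Among stromal cells, which are known sources of Il33, 15 of 15 fibroblast and stellate markers were tested and 3 rose with the block (Thy1, Col6a1 and Pdgfra), with sums of 76.7 to 105 in exoNOD and 66.0 to 95.1 in control cells. Of 11 tested endothelial markers 1 rose with the block (Plvap) and 4 fell (Egfl7, Robo4, Cdh5 and Emcn), with sums of 10.9 to 11.8 in exoNOD and 10.9 to 12.5 in control cells. Markers of beta cells, in which Il1r1 is abundant, summed to 1112 to 1141 in exoNOD and 1146 to 1222 in control cells. The 2 brightest, the insulin genes Ins2 (−0.07, limma adjusted p = 0.770 with the block) and Ins1 (−0.12, 0.568), did not pass. With the block 8 of 13 fell (Slc30a8, Nkx6-1, Mafa, Ucn3, Slc2a2, Nkx2-2, Pdx1 and Glp1r, by 0.30 to 0.83 on the log2 scale). Without the block 0 of the 13 were called, and Il1r1 had a lower mean beside them. Over all tested genes the blocked fit called 6.89% higher and 1.83% lower. Of B lymphocyte, duct and acinar markers 8, 10 and 9 were tested. Of these, Cd79b and Ms4a1, Cftr and Spp1, and Cpa1 rose and the acinar marker Bhlha15 fell with the block. Ms4a1 was above background on 0 of 3 control arrays and met the filter only through the exoNOD arrays, so its call is a description. Markers of alpha, delta and PP cells summed to 753 to 800 in exoNOD and 861 to 898 in control cells, with 0 of 10 called. Whether any of these shifts bears on Il1rl1, Il33 or Il1r1 was not tested.

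The named genes whose levels ran most like a member's over the 6 arrays were found by Pearson's correlation, as a description. The points share their arrays and scaling, and with so few of them a close match among so many genes is easily found. For Il1b these were the niacin receptor gene Hcar2 (r = 0.996), the interferon-induced gene Ifitm1 (0.995) and the transcription factor gene Gata3 (0.994). For Il33 they were Defa-ps1 (0.996), Tert (0.992) and Mospd1 (0.990), for Il1a Ptprcap (0.995), Pjvk (0.994) and Noxa1 (0.994), and for Il1rn Lepr (0.994), Hk3 (0.994) and Igf1 (0.993).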

How the data were processed

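Agilent mouse arrays of 1 colour (Cy3) measured total RNA, 3 arrays per group. Per the file headers, the authors' Agilent Feature Extraction 11.0.1.1 gave for each spot a processed signal, an intensity that is background-subtracted and detrended within the array and not normalized between arrays, its median spot and background intensities, and flags for spots above background, saturated or uneven (other values of 0 or 1, per the file headers). The authors' deposited value table is on a log2 scale, and its normalization is not given in the sources used here. It served as an alternative.

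Of 43020 spots for transcripts per array, between 0.381% and 0.618% were flagged as uneven or as outliers and were left out, which drops a single-spot probe from that array; this touched 0 arrays of the 8 members with 1 spot. Then log2 signals minus the array's 75th percentile (812 to 890) were averaged per probe. The highest share of spots above background was 81.8% and the lowest 78.0%, and 0 were saturated. Precision is limited by the number of arrays. Of 39429 probes, 27234 had a symbol through RefSeq. A probe was kept if each array of 1 group or both read it above background, and the brightest stood for its gene.

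The test was limma 3.58.1 under R 4.3.3 (eBayes with a trend, Benjamini-Hochberg over all tested genes, threshold 0.05). Code was tested on simulated data. Deviations from the group mean correlated across genes at 0.366, 0.281 and 0.480 between arrays of equal replicate number and between −0.341 and 0.009 otherwise. Each value for equal numbers was over 0.1, so equal numbers were taken as pairs. Deviations within a group sum to 0, so positive values for equal numbers push the others down, and the contrast is no separate evidence. Pairing comes from these values, as the labels give a number but no shared preparation, and p-values measure the spread between these arrays. Members and lists were chosen with earlier results of these data known. All 10 members are named. Of the pathway and response lists the text names the 4 genes of lowest p. Up to 8 more called with the replicate block are named by lowest p. Of marker lists it names genes called with the block. The rule also allowed the 2 brightest, which are named for T lymphocytes, neutrophils and beta cells. Alternatives were the replicate block, normexp (offset 50, on median spot signals, as the files hold no mean signal), quantile and median scaling, other filters, the deposited values, slide, array weights, the second brightest probe and leaving out arrays or pairs; keeping flagged spots, and marker sums without Itgam or Tpsb2, were added after seeing the data.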

Additional observations from a re-analysis of the deposited data

How the results depend on the processing

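Il1b, Il1rn, Il1rl1 and Il33 kept a positive and Il1r1 a negative change in every setting run. The replicate block changed the call of Il1b among the members, and it raised the called genes to 2 of the pathway list and to 13 of the response list, against 0 and 1; it changed no other call of a member. In blocked fits of quantile-normalized and of the deposited values, 1 member, 1 pathway gene and 9 response genes passed. Those fits called 4.87% and 4.77% of all tested genes. Keeping flagged spots with the block gave 1, 2 and 13, and 8.4% of all. Without the block, 3 response genes passed with normexp, and 0 after median scaling, without a filter on dim probes, with slide as a block and on slide 1 alone. Of all tested genes normexp called 0.628%, median scaling 0.0504% and the fit without the filter 0%. Normexp moved the median change of all genes to 0.35 and median scaling to −0.11, against 0.035. Leaving out 1 array gave 0 to 1 members, 0 to 1 pathway and 0 to 4 response genes. The response count was 0 without exoNOD replicate 2, exoNOD replicate 3, control replicate 1 or control replicate 2. It was 3 without exoNOD replicate 1 and 4 without control replicate 3. Of all tested genes 4.93% were called without exoNOD replicate 1, 0.295% without control replicate 3 and at most 0.00775% without any other array. Leaving out 1 pair with the block gave 1 to 4 members, 1 to 4 pathway and 6 to 13 response genes. Without pair 1, 4 members (among them Il1a, Il1rl1 and Il33) and 13 response genes passed, beside 16.2% of all tested genes. That fit leaves each group on its own slide, where slide and treatment cannot be told apart. Il1a was tested only through the exoNOD arrays, so its call is a description. The response count was 6 without pair 2 (1.7% of all tested genes called) and 11 without pair 3 (6.74%). Directions turned for members and genes with small changes. Il1r2 was at −0.030 after quantile normalization and −0.031 in the deposited values, blocked or not, −0.023 after median scaling, and between −0.049 (without exoNOD replicate 3) and 0.31 with 1 array left out. Myd88 was at −0.077 after median scaling, −0.21 with slide as a block and on slide 1, −0.029 without exoNOD replicate 3 and −0.11 without control replicate 1 (up to 0.20 with another array left out). Irak3 was at 0.63 with normexp, 0.023 with array weights, 0.13 without exoNOD replicate 1, 0.21 without control replicate 3 (down to −0.31 with another array left out) and 0.10 with the block without pair 3. Il1a was at −0.14 with slide as a block and on slide 1, and −0.12 with the block without pair 2. Cxcl1 was at −0.049 and Tnfaip3 at −0.072 with slide as a block and on slide 1. The slide fits use exoNOD replicate 1 as the lone treated array and assume that it varies like the others. The causes were not tested. For members with no other probe above background the second brightest probe gave no value. Dimness limits Il1a and Il1rap among the members and Mmp3 on the response list, which were not above background on every array.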
